A study of Mus musculus with 9 samples.

Results

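The transcripts described here encode 7 proteins of the desmosome, the desmosomal cadherins Dsc2, Dsc3 and Dsg2, the armadillo-repeat plaque proteins Jup, Pkp2 and Pkp4, and the plakin Dsp. They were followed in hippocampal polyadenylated RNA of young C57BL6/J mice. The members are the rows of the deposited count table that carry these symbols, and all 7 were found among 24394 named genes and passed the filter on low counts together with 15296 genes in all. The set was chosen by the measured values of Dsc3, which had the smallest p of the 15296 genes when doxorubicin was compared with sham. There were 9 libraries, 3 in each group. Saline was given to the sham mice. A further group was injected with doxorubicin, an anthracycline chemotherapy drug that poisons topoisomerase II. The last group received doxorubicin and was given MitoQ, an antioxidant ubiquinone compound targeted to mitochondria. Doxorubicin is thus common to both treated groups, and MitoQ without doxorubicin was not analysed here. The labels state no dose, time, sex or exact age, and do not say whether each library came from its own mouse. P-values therefore reflect only how these samples varied, and that variation may be technical.

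A desmosome is a spot-like junction that ties the intermediate filaments of neighbouring cells together. Desmogleins and desmocollins span the membrane and bind each other across the gap. Plakoglobin (Jup) and the plakophilins bind the cadherin tails inside the cell, and desmoplakin (Dsp) links this plaque to the filaments. Desmosomes are best known from epidermis and heart muscle. In the brain they are described mainly in the arachnoid layer of the meninges, and in mice Dsp is also transcribed by dentate granule cells.

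The shallowest library held 24.7 M (mega) counts and the deepest 41.2 M. The unit of a level is CPM, a gene's reads for each 1 M reads of the TMM-scaled library. Markers of hippocampal pyramidal neurons were present in every library, with the kinase gene Camk2a between 5290 and 7490 CPM. Libraries differed in their content of choroid plexus epithelium. The 14 markers of that tissue summed to 92.8, 5220 and 104 CPM in sham libraries 1, 2 and 3, to 4280, 82.5 and 2230 CPM after doxorubicin and to 3630, 1410 and 5460 CPM with MitoQ added. In bulk RNA, fewer cells of a type and less RNA per cell cannot be told apart.

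Hippocampal desmosomal transcripts were dominated by plaque genes, and the cadherins were rare. Per kilobase of merged exon (GENCODE M21), Pkp4 stood first at 73.6 ± 2.83 CPM per kb (SD, n = 9). Dsp followed at 9.32 ± 2.17, Jup at 7.25 ± 0.571 and Pkp2 at 7.24 ± 1.23 CPM per kb. The ranges of Dsp (7.37 to 14.5), Jup (6.24 to 7.77) and Pkp2 (5.82 to 10.1) overlapped over the libraries. Compared within each library, Dsp lay above Jup in every one. It also lay above Pkp2 except in sham library 3, where the ratio of Dsp to Pkp2 was 0.973. Jup and Pkp2 changed places, with 7.77 and 6.5 in sham library 1 and 6.53 and 7.58 in sham library 3. Dsg2, at 0.916 ± 0.216 CPM per kb, lay below every plaque gene. Dsc3 at 0.316 ± 0.202 and Dsc2 at 0.12 ± 0.0478 CPM per kb came last, and their ranges overlapped (0.0877 to 0.636 and 0.07 to 0.228). Within each library Dsc3 lay above Dsc2, by little in the doxorubicin libraries (ratios of 1.06 to 1.22). These SDs also hold the differences between groups. Merged exons of all annotated isoforms overstate the length of a shorter transcript, and the isoforms in use cannot be read from gene counts.

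Dsc3 encodes desmocollin 3, an adhesive cadherin known mainly from the basal layers of stratified epithelia (chromosome 18, 19960930 to 20002351, minus strand). The sham libraries held 75, 123 and 66 reads, or 2.93, 3.44 and 2.64 CPM. The doxorubicin libraries held 15, 19 and 13 reads, or 0.583, 0.753 and 0.474 CPM. With MitoQ added there were 40, 85 and 48 reads, or 1.26, 2.04 and 1.27 CPM. The 3 groups formed separate tiers, with every MitoQ library above every doxorubicin library and below every sham library. MitoQ library 2 lay highest of its group.

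The highest upper bound among the doxorubicin libraries was 1.18 CPM and the lowest lower bound among the sham libraries 2.04 CPM (exact Poisson intervals at 95%, which cover counting error only). MitoQ library 2, with an interval of 1.63 to 2.52 CPM, reached into those of sham libraries 1 and 3, 2.31 to 3.68 and 2.04 to 3.36 CPM. MitoQ libraries 1 and 3, with intervals of 0.897 to 1.71 and 0.933 to 1.68 CPM, reached into those of doxorubicin libraries 1 and 2, 0.326 to 0.961 and 0.454 to 1.18 CPM. Group means were 3 ± 0.402 CPM in sham, 0.603 ± 0.141 CPM after doxorubicin and 1.52 ± 0.45 CPM with MitoQ added (SD, n = 3).

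The values that chose Dsc3 are those of doxorubicin against sham, where it lay 4.99-fold lower (log2 fold change -2.32, SE 0.28). Relative to doxorubicin alone, the MitoQ group stood 2.53-fold higher (log2 fold change 1.34, SE 0.28). Relative to sham, it was 1.97-fold lower (log2 fold change -0.98, SE 0.24). Each of these comparisons shares sham or doxorubicin libraries with the choice of the gene, so the folds are a description and no test is given for Dsc3. The MitoQ libraries themselves took no part in the choice. With the choroid plexus content as a covariate the 3 log2 values were -2.32, 1.36 and -0.96.

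**Figure D1:**
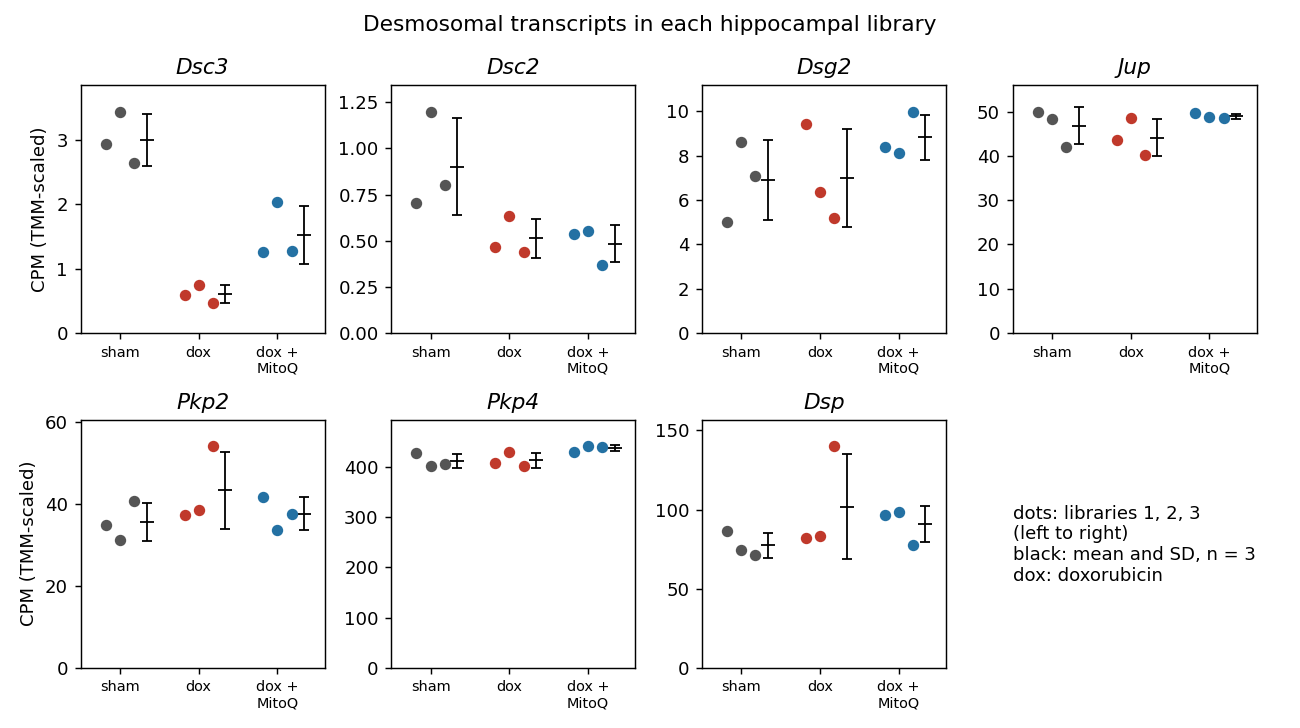
CPM of each desmosomal gene (vertical axes from 0, scales differ) in the 9 libraries, libraries 1, 2 and 3 of a group from left to right, with mean and SD in black (n = 3). Dsc3 shows 3 separate tiers, doxorubicin library 3 stands above the rest for Dsp (140 CPM) and Pkp2 (54 CPM), and Pkp4 is nearly flat.

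Across all genes, edgeR's quasi-likelihood test with Benjamini-Hochberg adjustment called 0 of 15296 genes (0%) at an adjusted p under 0.05 in each of the 3 comparisons. Unadjusted p-values under 0.05 numbered 1350 for doxorubicin against sham, 505 for MitoQ added against doxorubicin and 451 for MitoQ added against sham. DESeq2 called 44, 5 and 2 genes, and limma-voom 0 in each. No member was called by edgeR in these comparisons. The 6 members other than Dsc3 were tested in the comparisons with the MitoQ group, 12 differences in all, and their edgeR adjusted p ranged from 0.97 to 1.

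Dsc2, the desmocollin of simple epithelia and heart, lies next to Dsc3 on the same strand (chromosome 18, 20030633 to 20059554), with 28.3 kb between the genes. Sham libraries 1, 2 and 3 gave 0.704, 1.2 and 0.8 CPM. The doxorubicin libraries gave 0.466, 0.634 and 0.437 CPM. With MitoQ added the values were 0.534, 0.552 and 0.369 CPM. Both treated groups lay below every sham library and overlapped each other, so Dsc2 lacked the intermediate tier that Dsc3 showed in the MitoQ group. These levels rest on 12 to 43 reads a library. The Poisson intervals of sham libraries 1 and 3 (0.417 to 1.11 and 0.489 to 1.24 CPM) overlapped that of each treated library. Sham library 2, at 0.869 to 1.62 CPM, overlapped only doxorubicin library 2 (0.363 to 1.03 CPM) among the treated libraries.

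As a description, Dsc2 was 1.78-fold lower after doxorubicin than in sham (log2 fold change -0.83, SE 0.33). Between the MitoQ group and sham its log2 fold change was -0.91, with a 95% interval of -1.61 to -0.22 (edgeR adjusted p = 1). Between MitoQ added and doxorubicin alone it was -0.08, with an interval of -0.83 to 0.68 (edgeR adjusted p = 0.99), and the sign of that value turned without doxorubicin library 2 (0.1) or MitoQ library 3 (0.09).

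Dsg2, the desmoglein found in nearly all desmosome-bearing tissues (chromosome 18, 20558074 to 20604521, plus strand), was the most abundant of the 3 cadherins. It stood at 5.01, 8.63 and 7.08 CPM in sham, 9.44, 6.34 and 5.17 CPM after doxorubicin and 8.38, 8.11 and 9.99 CPM with MitoQ added. The sham and doxorubicin groups covered nearly the same range. MitoQ libraries 1 and 2 lay in the upper part of it, and MitoQ library 3 lay above it, the highest of all 9. The log2 fold change was 0.01 (SE 0.24) for doxorubicin against sham, as a description, and ranged from -0.27 without doxorubicin library 1 to 0.2 without sham library 2.

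With MitoQ added, Dsg2 differed by 0.34 from doxorubicin (95% interval -0.18 to 0.86, edgeR adjusted p = 0.97) and by 0.35 from sham (-0.17 to 0.86, adjusted p = 1) on the log2 scale. Libraries poor in choroid plexus markers had some of the lower Dsg2 values, with 5.01, 7.08 and 6.34 CPM in sham libraries 1 and 3 and doxorubicin library 2. Doxorubicin library 3 broke this order, with 2230 CPM of choroid markers and 5.17 CPM of Dsg2. With choroid plexus content as a covariate, the log2 differences became 0.21 and 0.13. An antisense gene, Gm16090, shares 330 exonic bases with Dsg2, and since the strand setting of the counting is not given, reads from that stretch cannot be assigned to either gene.

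The makeup of the cadherin transcripts followed from these values and is given as a description. Summed per kb of exon, the 3 cadherins reached 1.56 ± 0.32 CPM per kb in sham, 1.06 ± 0.273 after doxorubicin and 1.44 ± 0.0819 with MitoQ added (SD, n = 3). Dsc3 made up 42.4%, 33.3% and 32.6% of the sum in sham, 8.06%, 13.6% and 11% after doxorubicin and 17.2%, 25.8% and 15.5% with MitoQ added. The share of Dsg2 was 53% ± 5.2 in sham, 79.5% ± 5.36 after doxorubicin and 74% ± 6.53 with MitoQ added. Dsc3 was thus closer to Dsg2 in the sham libraries than in those of either treated group.

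The ratio of Dsc3 to Dsc2 per kb was 4.07, 2.79 and 3.22 in sham and 1.22, 1.16 and 1.06 after doxorubicin. With MitoQ added it was 2.3, 3.61 and 3.35. By this ratio the MitoQ libraries overlapped the sham range, while the doxorubicin libraries lay below both groups. Dsc3 itself stayed below sham with MitoQ added, at 1.26 to 2.04 CPM against 2.64 to 3.44 CPM. Dsc2, the denominator, was also lower, with means of 0.485 CPM with MitoQ added and 0.902 CPM in sham. It rests on 17, 23 and 14 reads in the MitoQ libraries. The ratio uses the Dsc3 values that chose the set and is a description.

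**Figure D2:**
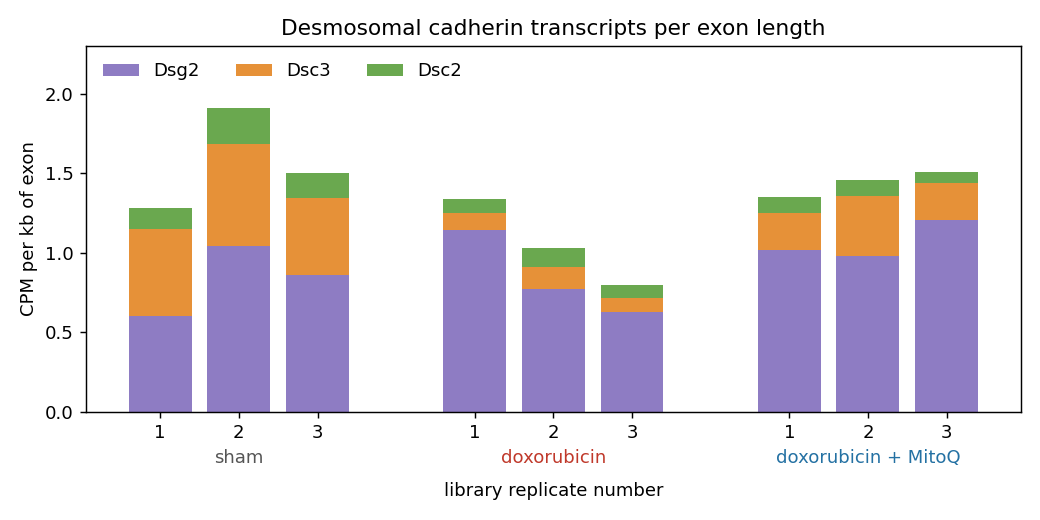
Stacked bars of Dsg2, Dsc3 and Dsc2 transcripts in each library, in CPM per kb of merged exon. Dsc3 forms 32.6% to 42.4% of the bar in sham, 8.06% to 13.6% after doxorubicin and 15.5% to 25.8% with MitoQ added.

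Among the plaque genes, Pkp4 (plakophilin 4, or p0071, an armadillo protein of both desmosomes and adherens junctions; chromosome 2, 59160850 to 59355208, plus strand) was steady. It stood at 427, 401 and 406 CPM in sham, 407, 429 and 402 CPM after doxorubicin and 430, 441 and 439 CPM with MitoQ added. The highest library exceeded the lowest 1.1-fold. Every MitoQ library lay above the others, although by little. The log2 difference from doxorubicin was 0.08 (95% interval -0.02 to 0.19, edgeR adjusted p = 0.97) and from sham 0.09 (-0.02 to 0.19, adjusted p = 1).

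Jup (plakoglobin, which binds cadherin tails in desmosomes and adherens junctions; chromosome 11, 100368958 to 100397763, minus strand) was at 50, 48.3 and 42.1 CPM in sham. It was at 43.6, 48.6 and 40.2 CPM after doxorubicin and at 49.6, 48.8 and 48.5 CPM with MitoQ added. The MitoQ libraries fell inside the sham range and varied least, with a coefficient of variation of 1.16% against 8.95% in sham and 9.68% after doxorubicin. The log2 fold change was -0.09 (SE 0.08) for doxorubicin against sham. With MitoQ added it was 0.15 against doxorubicin (95% interval -0.03 to 0.34, edgeR adjusted p = 0.97) and 0.07 against sham (-0.12 to 0.25, adjusted p = 1).

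Dsp (desmoplakin; chromosome 13, 38151294 to 38198577, plus strand) had 1 library apart from the rest. It was at 86.4, 74.6 and 71.2 CPM in sham, 82, 83.2 and 140 CPM after doxorubicin and 96.7, 98.3 and 77.8 CPM with MitoQ added. Doxorubicin library 3 was the highest of the 9, while doxorubicin libraries 1 and 2 lay inside the sham range. The log2 fold change for doxorubicin against sham was 0.40 (SE 0.19), and without doxorubicin library 3 it was 0.09. With MitoQ added it was -0.16 against doxorubicin (95% interval -0.58 to 0.25, edgeR adjusted p = 0.97), and 0.14 without that library. Against sham it was 0.23 (-0.18 to 0.65, adjusted p = 1). The gene Gm10129, on the opposite strand, shares 499 exonic bases with Dsp.

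Pkp2 (plakophilin 2, which helps to recruit desmoplakin to the junction; chromosome 16, 16213318 to 16272712, plus strand) stood at 34.8, 31.2 and 40.6 CPM in sham. After doxorubicin it was at 37.3, 38.5 and 54 CPM and with MitoQ added at 41.7, 33.7 and 37.4 CPM. Doxorubicin library 3 was again the highest of the 9, and the groups otherwise overlapped. The log2 fold change for doxorubicin against sham, 0.29 (SE 0.15), was 0.1 without that library. With MitoQ added it was -0.20 against doxorubicin (95% interval -0.53 to 0.12, edgeR adjusted p = 0.97) and 0.08 against sham (-0.24 to 0.41, adjusted p = 1).

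The mean level of 12 dentate granule cell markers in doxorubicin library 3 was 0.33 (log2, relative to the sham mean), against 0.04 and 0.05 in doxorubicin libraries 1 and 2 and -0.06 to 0.09 in sham. In MitoQ libraries 1, 2 and 3 it was 0.12, 0.18 and -0.03, the same order of libraries within the group as for Dsp. Pkp2 did not follow this order, at 41.7, 33.7 and 37.4 CPM, lowest in MitoQ library 2. In sham libraries 1, 2 and 3 the order of the list and of Dsp was not the same. The list was at 0.09, -0.06 and -0.03 and Dsp at 86.4, 74.6 and 71.2 CPM. Among the granule cell markers, the complement-related synaptic gene C1ql2 was at 186 CPM in doxorubicin library 3. It was at 149 to 167 CPM in sham and 185 CPM in MitoQ library 2. Of the 12 markers, 6 were highest in doxorubicin library 3, 4 in MitoQ library 2 and 1 each in sham library 1 and MitoQ library 1. The plakin Ppl reached 7.14 CPM in doxorubicin library 3, against 3.92 to 5.2 CPM in the other 8. The part of granule cell content in the Dsp and Pkp2 values was not tested.

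**Figure D3:**
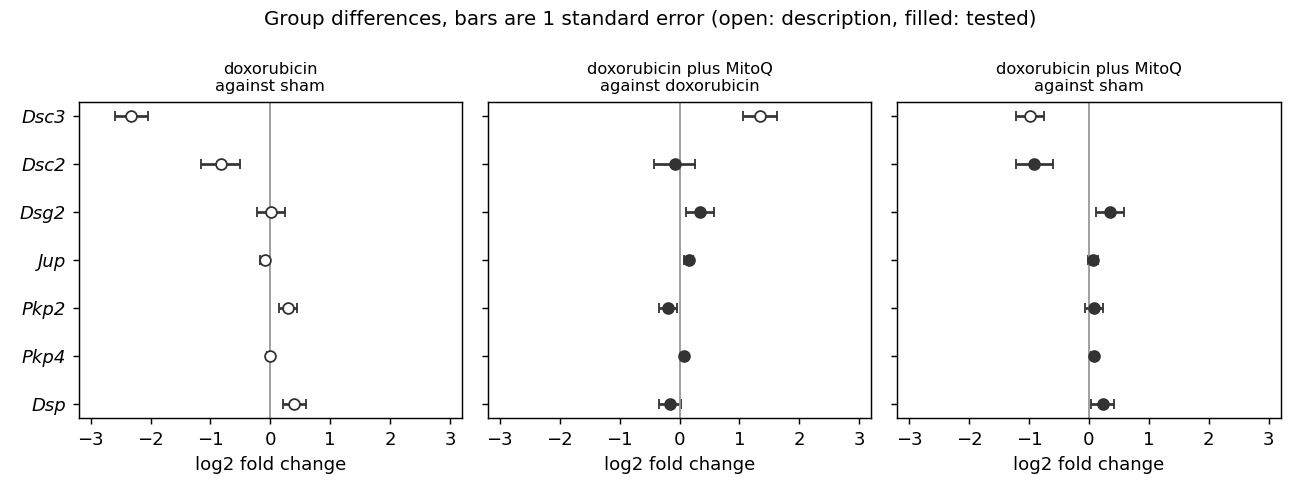
Log2 fold changes of the 7 genes in the 3 comparisons, with bars of 1 standard error from the edgeR fit; filled points were tested and open points are a description. Dsc3 lies at -2.32, 1.34 and -0.98, and the plaque genes lie within 0.40 of 0.

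The promoter windows of Dsp, Jup and Pkp4 are shown because windows were found for only these 3 of the 7 members. They were not chosen by their levels. Each line gives the 250 bases before the annotated start, 5′ to 3′ on the gene's strand, from RefSeq on GRCm38.p6. Capitals mark GC boxes (GGGCGG) and CCAAT boxes (CCAAT), searched on both strands. In Pkp4 a GC box on the opposite strand overlaps a CCAAT box, and the last 3 GC boxes overlap each other.
Dsp, chr13:38151044-38151293, plus strand: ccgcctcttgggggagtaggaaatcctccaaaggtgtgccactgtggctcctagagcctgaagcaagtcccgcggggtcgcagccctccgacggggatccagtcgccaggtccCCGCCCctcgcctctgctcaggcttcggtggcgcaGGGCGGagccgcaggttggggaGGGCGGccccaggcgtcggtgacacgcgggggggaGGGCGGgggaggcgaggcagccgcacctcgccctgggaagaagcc
Jup, chr11:100397791-100398040, minus strand: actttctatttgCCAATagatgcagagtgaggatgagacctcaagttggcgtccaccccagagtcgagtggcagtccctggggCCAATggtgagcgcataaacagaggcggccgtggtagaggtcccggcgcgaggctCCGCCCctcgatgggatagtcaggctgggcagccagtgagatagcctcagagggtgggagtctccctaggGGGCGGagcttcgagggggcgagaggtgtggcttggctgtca
Pkp4, chr2:59160600-59160849, plus strand: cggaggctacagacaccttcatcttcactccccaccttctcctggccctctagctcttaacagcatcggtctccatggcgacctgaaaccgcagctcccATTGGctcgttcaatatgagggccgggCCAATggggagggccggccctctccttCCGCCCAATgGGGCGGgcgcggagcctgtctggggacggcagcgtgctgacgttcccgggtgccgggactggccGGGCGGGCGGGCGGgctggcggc
Dsp held 4 GC boxes and 0 CCAAT boxes, Jup 2 and 2, and Pkp4 5 and 3. The TATA box letters TATAAA were found in none of these windows. Of 32851 promoter windows of this length, 32.7% held a GC box, 33.8% a CCAAT box and 12.4% TATAAA. CpG dinucleotides numbered 22 in Dsp, 13 in Jup and 21 in Pkp4, against a median of 6 over all windows. A second annotated start of Pkp4 has a window with 32 CpG and none of these motifs. A match of letters is a description and does not show that a factor binds.

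Members whose groups did not overlap are set here against all genes. For doxorubicin against sham, 2 of 7 members (Dsc2 and Dsc3) lay lower without overlap, as did 6.79% of the 15296 genes, and since this comparison chose Dsc3 nothing is read from that count. For MitoQ added against doxorubicin, 2 members lay higher without overlap (Dsc3 and Pkp4), as did 4.73% of all genes. For MitoQ added against sham, 2 members lay lower (Dsc2 and Dsc3; 5% of all genes) and 1 higher (Pkp4; 4.11%). Both comparisons with the MitoQ group share doxorubicin or sham libraries with the choice of Dsc3. Nothing is therefore read from these counts either.

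The desmosomal and envelope genes outside the set were mostly at or near 0. Of 12 such genes, 7 fell below the filter on low counts, among them the epidermal cadherins Dsc1 with 10 reads over the 9 libraries, Dsg1a, Dsg1b and Dsg3 with 1 each, and Dsg4 with 0. The plakophilin Pkp1 had 7 reads and Pkp3 had 62. The most abundant of the list were Perp, a tetraspan membrane protein of desmosomes, at 1.96 to 9.78 CPM, and Ppl, periplakin, at 3.92 to 7.14 CPM. Of the 5 tested genes, 3 were higher and 2 lower after doxorubicin (median log2 fold change 0.12, against 0.004 over all genes), and 0 passed the test in any comparison, as for all genes. The plakin Evpl, envoplakin, was the 1 gene of the 5 whose sham and doxorubicin libraries did not overlap. It was at 4.3, 4.27 and 4 CPM in sham and 3.34, 2.18 and 2.22 CPM after doxorubicin. With MitoQ added it was at 2.54, 4.13 and 3.22 CPM, across both. Over all genes 6.79% lay lower without overlap after doxorubicin, so nothing is read from this count.

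Perp moved with the choroid plexus content. It was at 9.78, 7.38 and 6.34 CPM in sham library 2 and doxorubicin libraries 1 and 3, and at 2.54, 1.96 and 2.1 CPM in sham libraries 1 and 3 and doxorubicin library 2. The first 3 libraries held the choroid plexus markers at 5220, 4280 and 2230 CPM, the others at 92.8, 104 and 82.5 CPM.

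Genes of neighbouring junctions and of the filaments that desmosomes hold had medians near 0. In 18 classical cadherin and catenin genes, 8 were higher and 10 lower after doxorubicin, with a median log2 fold change of -0.01. In that list β-catenin (Ctnnb1) was at 477 to 531 CPM and δ-catenin (Ctnnd2) at 278 to 325 CPM over the 9 libraries. With MitoQ added, 9 were higher and 8 lower than with doxorubicin (median 0.02), and 13 higher and 5 lower than sham (median 0.02). Of 14 tested intermediate filament genes, 5 were higher and 9 lower after doxorubicin (median -0.07). The neurofilament gene Nefl was at 485 to 578 CPM, with the doxorubicin libraries highest (534 to 578 CPM). The glial filament gene Gfap was at 350 to 513 CPM, with the doxorubicin libraries lowest (350 to 419 CPM). Of 18 tight and gap junction genes, 6 were higher and 12 lower after doxorubicin (median -0.06). The connexin Gja1 was at 235 to 309 CPM and the claudin Cldn11 at 132 to 189 CPM. The connexin Gjb2 was the 1 gene of that list without overlap between sham (9.39, 10.1 and 9.56 CPM) and doxorubicin (4.51, 4.32 and 6.59 CPM). With MitoQ added Gjb2 was at 6.81, 8.11 and 4.64 CPM. Over all genes 6.79% lay lower without overlap after doxorubicin. In these lists 0 genes passed the test in any of the 3 comparisons. Over all genes tested, 51.1%, 49.9% and 52.2% were higher in doxorubicin against sham, MitoQ added against doxorubicin and MitoQ added against sham, and the medians were 0.004, 0 and 0.005.

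Several marker lists of other cells and regions lay lower in the same libraries as Dsc3. Markers of fibroblasts and meninges were lower after doxorubicin in 19 of 19 tested genes, with a median log2 fold change of -0.74. Their mean log2 level ran from -0.25 to 0.16 in sham, from -1.07 to -0.65 after doxorubicin and from -0.70 to -0.06 with MitoQ added, relative to the sham mean. Summed over the 20 genes of the list they ranged from 597 to 807 CPM in sham, 307 to 733 CPM after doxorubicin and 435 to 542 CPM with MitoQ added. The prostaglandin synthase Ptgds, the most abundant of them, reached 604 CPM in doxorubicin library 3, where the list was at 733 CPM.

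Neocortical layer markers were lower after doxorubicin in 15 of 15 genes, with a median of -0.27. They summed to 556 to 572 CPM in sham, 432 to 480 CPM after doxorubicin and 471 to 531 CPM with MitoQ added. As for Dsc3, MitoQ library 2 was the highest of its group on both lists, at -0.06 and -0.17. The Dsc3 interval of that library (Poisson, 1.63 to 2.52 CPM) overlapped those of MitoQ libraries 1 and 3. In doxorubicin libraries 1, 2 and 3 Dsc3 was at 0.583, 0.753 and 0.474 CPM, from 15, 19 and 13 reads. Their Poisson intervals overlapped (0.326 to 0.961, 0.454 to 1.18 and 0.252 to 0.81 CPM), so the order of Dsc3 there is not resolved. In the same libraries the fibroblast and meninges list was at -0.74, -1.07 and -0.65. The neocortical list was at -0.3, -0.39 and -0.53. No marker of either list was at 0 in all libraries. The most abundant cortical marker, Rasgrf2, was at 93.2 to 114 CPM. The part of meningeal or cortical tissue in the Dsc3 values was not tested.

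Other lists moved less or otherwise. Of 10 thalamic and habenular markers tested, 7 were lower after doxorubicin (median -0.12), and the axon guidance gene Ntng1 was at 40.8 to 49.6 CPM. Endothelial markers were lower in 9 of 10 (median -0.12), with the glucose transporter Slc2a1 at 81 to 118 CPM. Ependymal markers were lower in 7 of 11 (median -0.07), and Foxj1, a regulator of motile cilia, ranged from 13.5 to 31.7 CPM. Pyramidal neuron markers were higher in 10 of 12 (median 0.22).

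**Figure D4:**
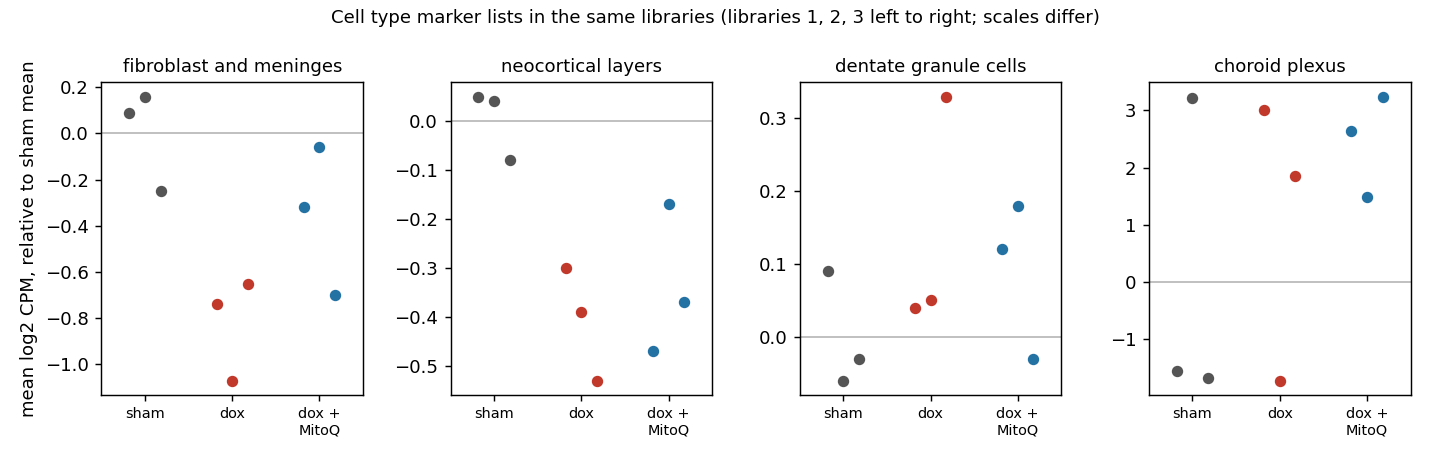
Mean log2 CPM of 4 marker lists in each library, relative to the sham mean, libraries 1, 2 and 3 from left to right and a separate scale for each list. Meningeal and cortical markers lie lower in every doxorubicin library than in sham, the granule cell list peaks in doxorubicin library 3 (0.33), and choroid plexus content varies within the sham and doxorubicin groups.

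The genes with profiles most like that of Dsc3 were sought in the 13871 tested genes that averaged 1 CPM or more. The measure was the root-mean-square difference of log2 CPM over the 9 libraries, each gene centred on its own mean. Dsc3 itself varied by 0.964 on this scale. The nearest gene was Ctxn3, which encodes the small membrane protein cortexin 3, at 0.302. It was at 2.23, 2.35 and 1.88 CPM in sham, 0.816, 0.515 and 0.364 CPM after doxorubicin and 0.942, 1.73 and 1.24 CPM with MitoQ added. Its groups formed the same tiers as those of Dsc3.

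Next came Slc17a6, the vesicular glutamate transporter VGLUT2, at a difference of 0.443. It stood at 23.1 ± 3.26 CPM in sham, 10.1 ± 2.26 after doxorubicin and 15.2 ± 3.31 with MitoQ added (SD, n = 3). It is a member of the thalamus and habenula list, which had a median log2 fold change of -0.12 after doxorubicin. In that list 3 of 10 tested markers were higher. Myoc, which encodes the secreted protein myocilin, followed at 0.485, with 34.3 ± 4.8, 15.9 ± 4.95 and 24.1 ± 7.37 CPM. Sowahb, at 0.502, stood at 6.86 ± 1.39, 3 ± 0.961 and 3.98 ± 0.471 CPM. The zinc finger gene Tshz2, a member of the neocortical list, came last of the 5 at 0.528, with 95.3 ± 12, 45.5 ± 10.1 and 61.3 ± 19.1 CPM. The list is a description over 9 libraries that share their groups, and genes with a strong group difference come first by construction.

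**Figure D5:**
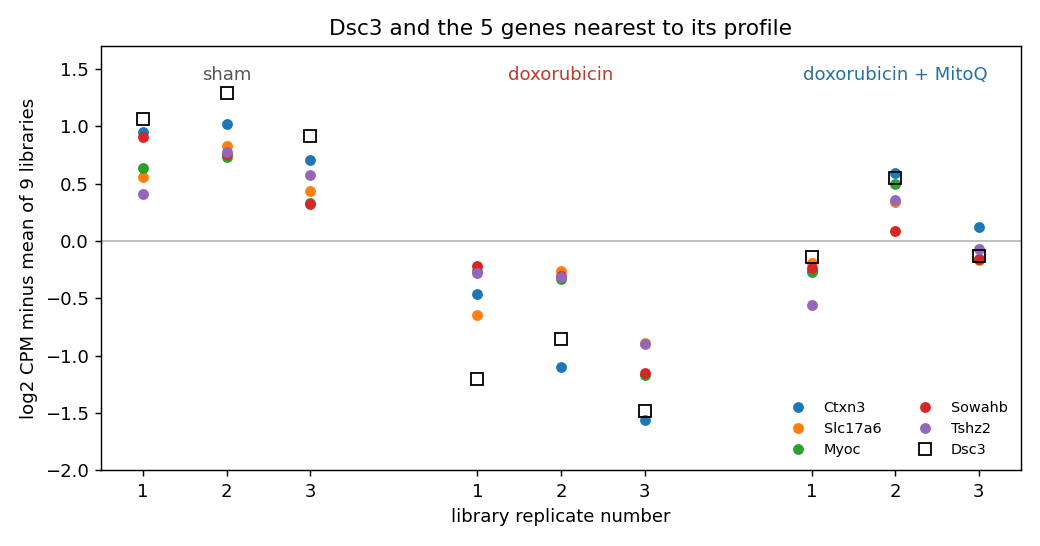
Log2 CPM of Dsc3 (open squares) and the 5 genes nearest to its profile (dots), each minus its mean over 9 libraries, by group and replicate number. All 6 genes are highest in sham and lowest after doxorubicin on average, and MitoQ library 2 is the highest of its group for each.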

How the data were processed

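Polyadenylated RNA of postmortem hippocampus was measured in 9 libraries, grouped and numbered from the sample titles. The authors deposited one table of unnormalized read counts, with a row for each gene symbol. STAR, DESeq2 and the mm10 build are named, per the submitters' processing notes. Not given in the sources used here: versions, the counting program, its strand setting and the annotation. The table holds 0 columns of no sample. In 27 entries a date stands for the symbol (0.309% to 0.322% of counts), and these stayed out of library sizes and tests. From the counts, filterByExpr (minimum count 10), TMM and quasi-likelihood F tests were run on all 9 libraries in one fit with edgeR 4.0.16 in R 4.3.3, adjusted over 15296 genes by Benjamini-Hochberg, with calls under 0.05. SE, the standard error of a log2 fold change, is its size divided by the square root of F. The common biological coefficient of variation was 11.4%. An exact permutation of 3 against 3 cannot go below 0.1. Members and lists were chosen with earlier results of these data known. Named genes were the members, the 2 (pathway lists) or 1 (cell type lists) most abundant of each list, and the 5 nearest to Dsc3. Dsc1, Dsg1a, Dsg1b, Dsg3, Dsg4, Evpl, Pkp1 and Pkp3 were named after their values were seen. So were Cdh1, Gjb2, Krt5, Krt14 and Krt19. Symbols in the lists were matched through RefSeq synonyms. Replicates of a group differed by more than sampling noise (chi-square per degree of freedom 8.38 to 29.3). Alternatives were median-of-ratios factors, DESeq2 1.42.0, limma-voom (limma 3.58.1), a filter of 1 CPM in 3 libraries or none, only the groups compared, a replicate block, a choroid plexus covariate, an adjusted p under 0.1, and leaving out each library. Figures used matplotlib 3.10.9 in Python 3.11.15.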

Additional observations from a re-analysis of the deposited data

How the results depend on the processing

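Dsc3, given as a description, had log2 fold changes of -2.52 to -2.17 (doxorubicin against sham), 1.06 to 1.53 (MitoQ added against doxorubicin) and -1.26 to -0.86 (MitoQ added against sham) when 1 library was left out. The count of called genes, 0 in each comparison, moved as follows. An adjusted p under 0.1 gave 1 gene after doxorubicin. DESeq2 gave 44, 5 and 2 in the order above; the 5 were Lars2, Mir6236, Rmrp, Rn45s and Rpph1, the 2 Cplx3 and Ctgf. Without a filter the counts were 1, 2 (Mir6236 and Rn45s) and 0. Leaving out 1 library gave 0 to 1 (1 without MitoQ library 2), 0 to 3 and 0 to 3 (Lars2, Mir6236 and Rn45s, without the same library). These names were taken after seeing the calls, and the cause of the moves was not tested. With the replicate block, 2 genes were called after doxorubicin, Slc17a6 among them, and 0 in the others. Each of these counts above 0 for doxorubicin against sham includes Dsc3, which was chosen by its p in that comparison, so nothing about Dsc3 is read from them. The numbers do not pair the samples: same-numbered libraries correlated at -0.5 to 0.36, and between 0 and 2 of 6 libraries correlated best with their own number. Small differences changed sign when 1 library was left out, with ranges of -0.27 to 0.2 for Dsg2 and -0.03 to 0.03 for Pkp4 (doxorubicin against sham), -0.19 to 0.1 for Dsc2 and -0.3 to 0.14 for Dsp (MitoQ added against doxorubicin), and -0.01 to 0.12 for Jup and -0.01 to 0.18 for Pkp2 (MitoQ added against sham). None of the other 6 members was called in the 2 comparisons with the MitoQ group under the alternatives run. Dsc2 had no value under the filter of 1 CPM, which removed it. Depth limits Dsc2 most, at 12 to 43 reads a library, where 3 counts are 0.0728 to 0.122 CPM.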

Other observations

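The keratins Krt8 and Krt18 and P-cadherin, picked out after their values were seen, ranked the libraries nearly as the choroid plexus marker Ttr did. Ttr stood at 42.2, 4630 and 55.3 CPM in sham, 3780, 35.8 and 1970 CPM after doxorubicin and 3240, 1210 and 4870 CPM with MitoQ added. Krt18, a keratin of simple epithelia, was at 0.783, 8.69 and 0.6 CPM, then 7.96, 0.951 and 4.41 CPM, then 5.93, 2.42 and 9.47 CPM in the same order of libraries. Its partner Krt8 ranged from 0.198 to 5.17 CPM and Cdh3 (P-cadherin) from 0.08 to 5.22 CPM, both highest in sham library 2. Krt19, another keratin of simple epithelia, did not follow Ttr, at 0.048 to 0.22 CPM. The keratins of stratified epithelia in the list did not share this range, with Krt14 at 0 to 0.0391 CPM and Krt5 at 0.672 to 1.97 CPM. E-cadherin (Cdh1) differed from all of these. It was at 2.74, 1.45 and 0.92 CPM in sham, 0.583, 0.634 and 0.583 CPM after doxorubicin and 1.41, 3.24 and 0.633 CPM with MitoQ added. All its doxorubicin libraries lay below every sham library, and the MitoQ libraries spread across both. Cdh1 too was picked after its values were seen. Of the 18 genes of its list it was the 1 without overlap between sham and doxorubicin. Over all 15296 genes 6.79% lay lower without overlap in that comparison, so nothing is read from this separation.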
